A study of Mus musculus with 36 samples.

Results

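Olfr983, Olfr145, Olfr923 and Olfr160 are mouse odorant receptor genes known from earlier work to respond to acetophenone, and Olfr151 is a near-identical copy of Olfr160. These 5 genes were chosen by name out of 1107 listed olfactory receptor genes and 57010 gene identifiers. Of the 5, 4 had counts in every library and passed the filter on low counts in every set, and Olfr151 had none in any library.

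Each mature olfactory sensory neuron transcribes a single receptor gene of the large odorant receptor family, so the RNA of a receptor stands for the neurons that chose it. An odorant that binds the receptor activates the G protein Golf, adenylyl cyclase and a cyclic nucleotide-gated channel, and the neuron fires. Firing is followed by phosphorylation of ribosomal protein S6 (pS6), and an antibody to pS6 pulls down ribosomes with the RNA they carry, which enriches RNA of activated neurons. Acetophenone is an aromatic ketone with a sweet smell that is widely used in studies of odor learning in mice. One odorant usually activates many receptors, and one receptor usually answers several odorants.

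The RNA came from olfactory epithelium of male mice of the C57BL/6J strain, wild-type and 8 weeks of age. All mice spent 4 h in an odor-free chamber and were then exposed for 90 min to filter paper that carried 10 µL of odorant, or nothing (no odor). There were 36 libraries in 12 groups of 3 mice, in 3 sets of 12 libraries that the labels give as batches, each with its own no-odor mice. The AD set held acetophenone, the fatty aldehyde decanal and their 1:1 mixture. The OC set held the fatty aldehyde octanal, the leaf alcohol cis-3-hexenol and their 1:1 mixture. The FM set held a floral fragrance, a mint fragrance and a floral-mint fragrance, which were blended by a supplier and whose ingredients the labels do not name. In the AD and OC sets a mixture was applied in the same 10 µL as a single odorant, so each component was present at a smaller volume than alone.

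Library totals were between 16.04 and 26.39 M counts. Receptor genes held 37701 to 160196 counts of a library and the acetophenone receptors 84 to 3756. Levels are given as CPM (counts scaled to a library of 1 M) with library sizes adjusted by the trimmed mean of M-values (TMM), as mean ± SD over 3 mice. Changes are log2 fold changes with standard error (SE) from the quasi-likelihood test of edgeR in a fit of the 12 libraries of a set. The adjusted p is the Benjamini-Hochberg value across every gene in that fit, and a change was called when it was under 0.05. Overlap of libraries between groups was checked for these receptors only, so it is a description without a background of other genes.

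All 5 genes lie on chromosome 9 in the GENCODE vM21 annotation of GRCm38. Their coding sequences are 926 to 951 bases long. Among Olfr983, Olfr145, Olfr923 and Olfr160 the coding sequences were 66.6% to 72.05% identical, lowest between Olfr923 and Olfr160 and highest between Olfr983 and Olfr145. The 60-base stretch in which they are most alike is shown as the upper end of this likeness. Capitals mark the 42 bases that all share, counted from GENCODE vM21 transcripts, 5′ to 3′, with coding bases numbered from the first base of the start codon (682 to 741 in Olfr983, 670 to 729 in Olfr145 and Olfr160, 691 to 750 in Olfr923).
Olfr983: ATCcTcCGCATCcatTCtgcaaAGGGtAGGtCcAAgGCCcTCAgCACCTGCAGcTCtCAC
Olfr145: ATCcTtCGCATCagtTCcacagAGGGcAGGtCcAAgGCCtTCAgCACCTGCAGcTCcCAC
Olfr923: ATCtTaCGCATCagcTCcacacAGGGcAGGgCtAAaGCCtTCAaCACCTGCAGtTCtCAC
Olfr160: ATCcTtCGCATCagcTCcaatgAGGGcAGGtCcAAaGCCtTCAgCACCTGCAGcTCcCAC

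Likeness of this degree left little room for shared reads among these genes. No window of 100 bases in the longest transcript of Olfr983 (6097 windows), Olfr145 (6697) or Olfr923 (2747) occurred in another receptor transcript. Olfr160 was the exception, with 125 of 3393 windows also present in Olfr151. Coding sequences of this pair were 96.66% identical, with 30 mismatched bases, 1 gap and a longest identical run of 177 bases. The stretch around the gap is shown because it separates the genes: the capital G, coding base 741 of Olfr160 and one of a run of G, has no partner in Olfr151, whose sequence here spans coding bases 696 to 784 against 696 to 785.
Olfr160: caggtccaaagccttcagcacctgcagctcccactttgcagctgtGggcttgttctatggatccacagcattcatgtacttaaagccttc
Olfr151: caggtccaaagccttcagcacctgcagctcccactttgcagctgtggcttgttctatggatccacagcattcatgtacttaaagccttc

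Olfr151 is annotated as a polymorphic pseudogene, a gene that is intact in some mouse strains and broken in others. Its deposited count was 0 in all 36 libraries. A count of 0 allows up to 3 counts (counting error only), or 0.114 to 0.187 per 1 M counts by library, before TMM scaling. Olfr160 had whole-number counts in 36 of 36 libraries, from 6 to 318. Expected counts divide an ambiguous read among the genes it matches. Fractional counts occurred in 4 libraries for Olfr923 and in 1 each for Olfr983 and Olfr145. No count was divided between Olfr160 and Olfr151 in these files, and how reads common to the pair were assigned is not given in the sources used here.

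Acetophenone raised the pS6-bound RNA of all 4 detected receptors 21.7-fold to 26.4-fold above no odor. Olfr983 stood at 1.51, 1.63 and 1.74 CPM in the no-odor mice of the AD set and at 37.8, 27.3 and 42.6 CPM with acetophenone. Every acetophenone library was far above every control, and the change was 4.46 (SE 0.40, adjusted p 4.1e-05 in edgeR), a 22.0-fold rise. Olfr145 had 1.55, 2.29 and 1.52 CPM without odor and 54.1, 23.3 and 49.6 CPM with acetophenone. Replicate 2 was the lowest of these acetophenone libraries, but it too lay above all controls. Its change was 4.57 (SE 0.46, adjusted p 8.35e-05), or 23.7-fold.

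Olfr923 had 0.954, 1.01 and 1.43 CPM without odor and 53.0, 15.6 and 21.6 CPM with acetophenone. It varied most among acetophenone mice, with replicate 1 well above the other two, and its groups did not overlap. The change of 4.72 (SE 0.49, adjusted p 0.000104) was a 26.4-fold rise. Olfr160 had 0.874, 0.573 and 0.261 CPM without odor and 12.9, 14.3 and 10.6 CPM with acetophenone. Its acetophenone libraries were the closest together of the 4 genes, with a coefficient of variation of 14.9% against 66.8% for Olfr923. Its change was 4.44 (SE 0.46, adjusted p 0.000104), or 21.7-fold.

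In the plot of CPM by library, acetophenone and its mixture form the only high groups for each gene.

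**Figure D1:**
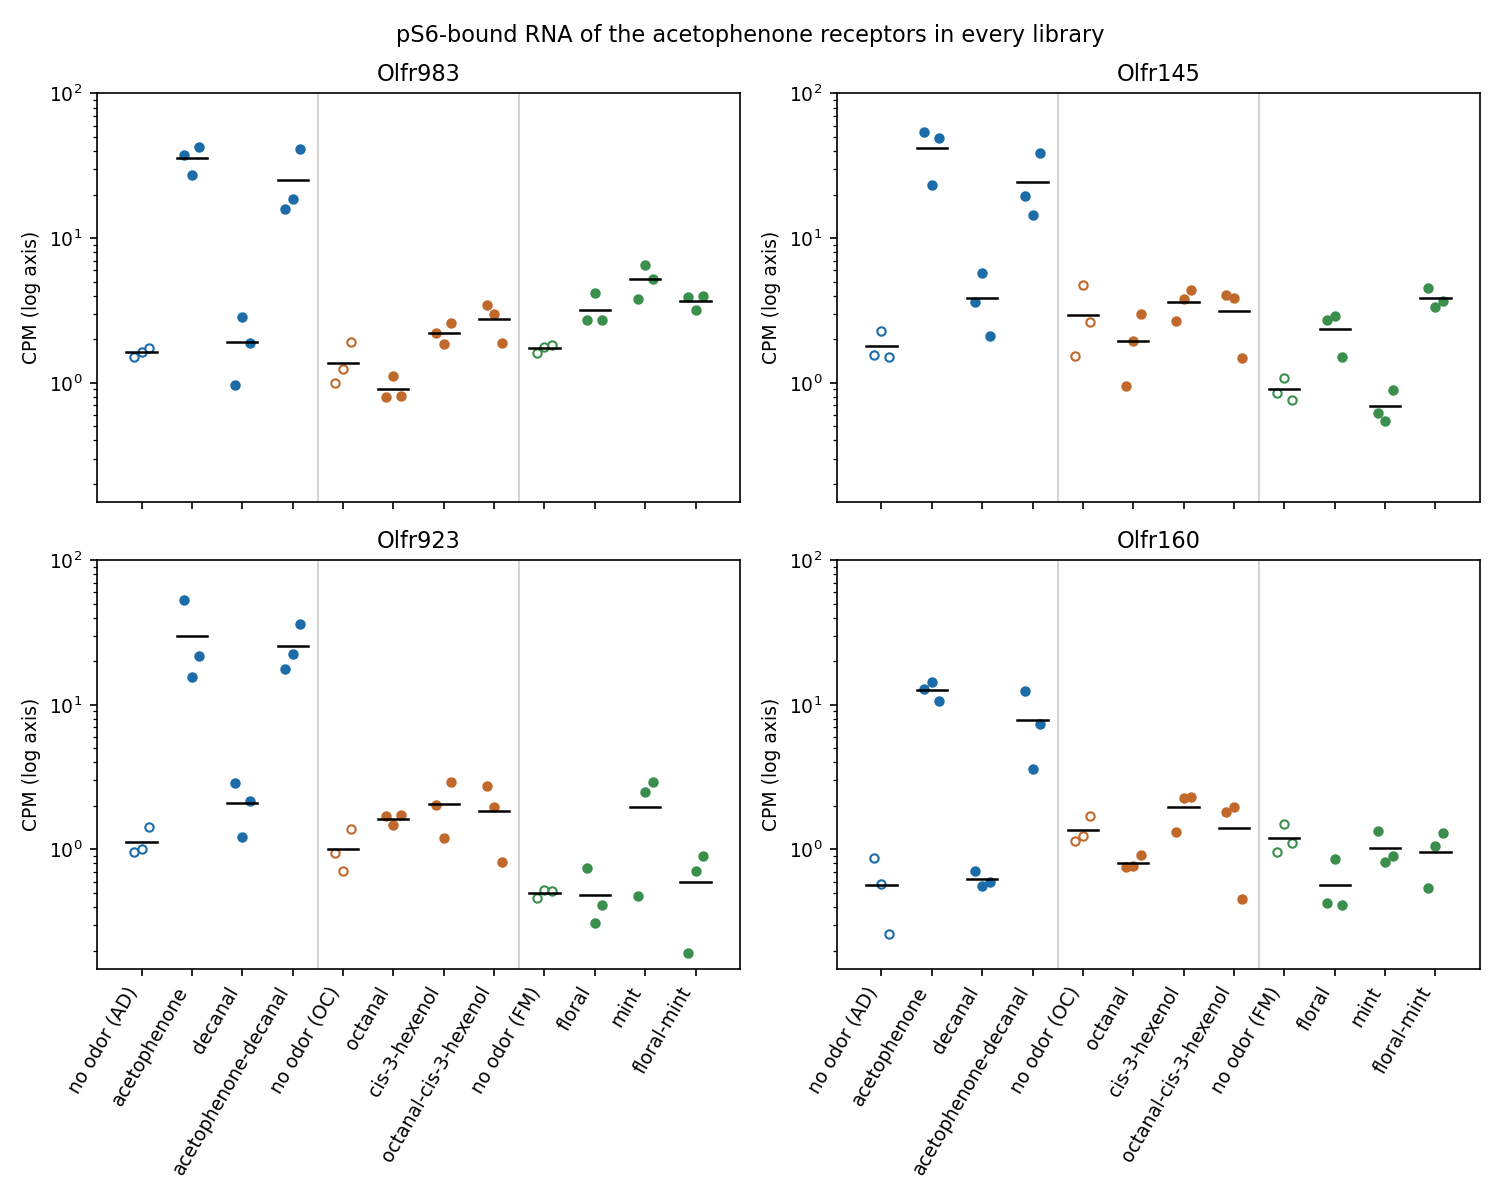
TMM-scaled CPM (log axis) of Olfr983, Olfr145, Olfr923 and Olfr160 in each of the 36 libraries, by group; open points are no-odor mice, filled points are odor-exposed mice, bars are group means, and colors and vertical lines separate the AD, OC and FM sets. All acetophenone and acetophenone-decanal libraries lie above all other libraries of the same gene; the closest to the rest is a mixture library of Olfr160 at 3.58 CPM.

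All 4 tested genes were thus called higher, where 12.7% of the 868 receptor genes tested and 4.22% of the 19514 genes tested were called higher. Their median change was 4.51, against 0.01 for all receptor genes tested. By size of change Olfr923, Olfr145, Olfr983 and Olfr160 ranked 20, 24, 25 and 26 among 868 receptor genes, so 19 receptors outside the group had larger changes than any of them. The calls were made under every one of the 14 alternatives run, which include leaving out each library. In bulk tissue a larger number of neurons that express a receptor, more receptor RNA in each and stronger pS6 capture cannot be told apart.

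Per kilobase of annotated exon, the scale on which genes can be compared, the no-odor means of the AD set were 0.262 CPM for Olfr983, 0.263 for Olfr145, 0.388 for Olfr923 and 0.163 for Olfr160. With acetophenone the means per kilobase were 5.79 ± 1.26, 6.23 ± 2.44, 10.3 ± 6.87 and 3.61 ± 0.537. Olfr923 was the highest and Olfr160 the lowest on both occasions, although with acetophenone 1 SD around the mean of Olfr923 covers the means of the other 3 genes. The annotated untranslated exons differ widely between these genes, and the exon lengths come from GRCm38 models, so this order depends on them.

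Together the genes took 0.147% ± 0.0194 of receptor counts without odor (SD, n = 3) and 2.27% ± 0.910 with acetophenone, a ratio of 15.5. The lowest acetophenone library, replicate 2, had 1.28% and the highest control 0.169%. The exact 2-sided permutation p was 0.1, the smallest that 3 against 3 mice allows. This share does not depend on TMM scaling, and its denominator also holds the other receptors that the odor raised.

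RNA of the signaling machinery moved in the same comparison. Of 18 listed olfactory transduction genes, 15 were called higher and 0 lower with acetophenone, with a median change of 0.84 against 0.00 for all genes, of which 4.22% were called higher. Gnal, which encodes the G protein subunit Golf alpha, rose by 1.17 (SE 0.11, adjusted p 4.66e-05). Ric8b, a chaperone and exchange factor for that subunit, rose by 1.06 (SE 0.12, adjusted p 0.000158). Cnga2, a channel subunit, had 0.81 (adjusted p 0.000585) and Rtp1, which helps receptors reach the membrane, 0.60 (adjusted p 0.000591). Both of these calls were lost with scaling to the median receptor gene, at 0.68 (adjusted p 0.0565) and 0.46 (adjusted p 0.134), where the median of all genes moved from 0.00 to -0.14. With decanal 8 of the 18 were called higher (10.8% of all genes) and with the acetophenone-decanal mixture 9 (10.9% of all genes), 0 lower in both, with medians of 0.30 and 0.39.

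Markers of mature olfactory sensory neurons, 8 genes, summed to 8099 to 9545 CPM without odor and 13851 to 21364 CPM with acetophenone, and 7 of 8 were called higher. All 8 are also among the 18 transduction genes above, so this is the same observation on fewer genes. With decanal, where none of the acetophenone receptors was called, the same sum was 15128 to 15837 CPM. Red blood cell markers, 5 genes, summed to 15516 to 20989 CPM without odor, 2567 to 13109 with acetophenone and 39333 to 42114 with decanal. Of these 5 genes 0 were called in either direction with acetophenone or with decanal against no odor. Bone and osteoclast markers had 3 of 5 genes called lower with acetophenone, where 1.27% of all genes were called lower, with sums of 2622 to 3031 CPM without odor and 2331 to 3061 CPM with acetophenone. The part of these marker values in the receptor changes was not tested.

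The 1:1 acetophenone-decanal mixture also raised all 4 receptors, to levels that were not called different from acetophenone alone. Olfr983 had 15.8, 18.6 and 41.3 CPM with the mixture, a change of 3.95 (SE 0.40, adjusted p 4.39e-05) against no odor. Olfr145 had 19.6, 14.6 and 38.7 CPM, a change of 3.76 (SE 0.45, adjusted p 0.000138). In both genes replicate 3 was about as high as acetophenone alone and the other libraries were lower. Olfr923 had 17.6, 22.6 and 36.3 CPM, a change of 4.49 (SE 0.49, adjusted p 7.4e-05). Olfr160 had 12.5, 3.58 and 7.37 CPM, a change of 3.75 (SE 0.46, adjusted p 0.000149), with replicate 1 the highest and replicate 2 the lowest. No mixture library overlapped a control in any of these genes, and 13.2% of the receptor genes tested were called higher. The 4 calls were made under all 14 alternatives. Mixture and acetophenone changes share the same no-odor mice.

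Set directly against acetophenone, a comparison without controls, the mixture means were 70.3% of the acetophenone mean for Olfr983, 57.4% for Olfr145, 84.8% for Olfr923 and 62.05% for Olfr160. The changes were -0.51 (95% interval -1.21 to 0.19), -0.80 (-1.61 to 0.01), -0.24 (-1.07 to 0.59) and -0.69 (-1.498 to 0.12). In each gene the libraries of the groups overlapped. The median change of all receptor genes tested was -0.24, and 12.4% of them were called lower. Of the 18 olfactory transduction genes 11 were called lower and 2 higher, where 14.4% of all genes were called lower and 11.3% higher. All 5 red blood cell markers were called higher, and the part of these values in the receptor changes was not tested. None of the 4 genes was called in edgeR, none had an unadjusted p under 0.05 (lowest 0.0517, Olfr145) and 0 were called by DESeq2, where 18% of receptor genes were called in either direction. These intervals hold both no difference and a fall of more than 1 on the log2 scale, so the comparison does not show that the levels were alike.
This result depended on single libraries. Without mixture replicate 3, Olfr983 and Olfr145 were called lower, at -1.06 (adjusted p 0.0197) and -1.31 (adjusted p 0.0279). Without mixture replicate 1, Olfr160 was called lower at -1.21 (adjusted p 0.0383). Olfr145 was also called lower without acetophenone replicate 2, at -1.09 (adjusted p 0.0454), and with no filter on low counts, at -0.81 (adjusted p 0.0284).

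As a share of receptor counts, the genes together had 1.79% ± 0.678 with the mixture, against 2.27% ± 0.910 with acetophenone, and the libraries overlapped. In the plot of the share of receptor counts, these are the only groups above 0.4%.

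**Figure D2:**
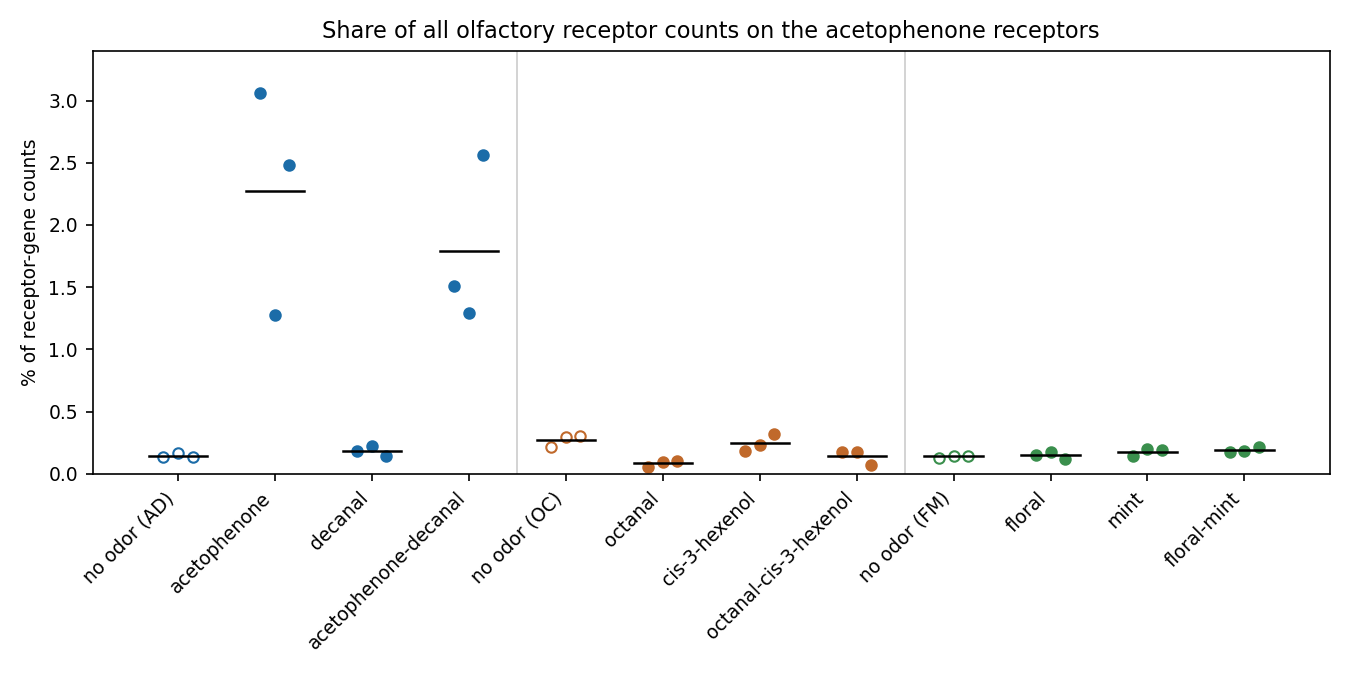
Share of all olfactory receptor counts (%) that fell on the acetophenone receptors in each of the 36 libraries, by group; open points are no-odor mice, filled points odor-exposed mice, and bars are means. Acetophenone libraries lie at 1.28% to 3.06% and mixture libraries at 1.30% to 2.56%, and all other libraries are at 0.320% or less.

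With decanal alone no receptor of the 4 was called. Olfr983 had 0.971, 2.86 and 1.87 CPM with decanal, a change of 0.23 (95% interval -0.71 to 1.16). Olfr923 had 2.86, 1.23 and 2.17 CPM, a change of 0.88 (-0.24 to 2.00). Olfr160 had 0.716, 0.562 and 0.591 CPM, a change of 0.12 (-1.001 to 1.24). Olfr145 had 3.63, 5.77 and 2.12 CPM. Its change was 1.102 (0.09 to 2.11), with an unadjusted p of 0.0346 and an adjusted p of 0.112 in edgeR. Libraries of all 4 genes overlapped with controls. None was called in edgeR or by DESeq2, 1 had an unadjusted p under 0.05, and 14.3% of receptor genes were called in either direction. Olfr145 was called higher, at 1.09 (adjusted p 0.0191), with no filter on low counts.

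Against decanal, acetophenone was higher in all 4 genes, where 21.2% of receptor genes were called higher. Changes were 4.23 (SE 0.40) for Olfr983, 3.46 (SE 0.43) for Olfr145, 3.85 (SE 0.46) for Olfr923 and 4.33 (SE 0.47) for Olfr160, with adjusted p of 9.07e-06 to 6.38e-05 in edgeR. The mixture was higher than decanal in all 4 genes too, at 3.73, 2.66, 3.61 and 3.64 in the same order, with adjusted p of 0.000371 to 0.0105, where 5.41% of receptor genes were called higher. Groups did not overlap in any of these 8 contrasts, and overlap was not counted over other genes. The mixture call of Olfr145 was lost without decanal replicate 1, at 2.63 (adjusted p 0.0966), or without decanal replicate 3, at 2.37 (adjusted p 0.0824).

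A mixture change that differs from the sum of its components' log2 changes gives an interaction. It was negative for all 4 genes, at -0.73 (SE 0.55) for Olfr983, -1.12 (SE 0.65) for Olfr923, -0.81 (SE 0.65) for Olfr160 and -1.90 (SE 0.60) for Olfr145. The median was -0.19 for all receptor genes tested and -0.71 for the 18 olfactory transduction genes. Of those 18 genes 3 were called lower and 0 higher, where 0.205% of all genes were called lower. None of the 4 receptors was called in edgeR or by DESeq2, and 0.806% of receptor genes were called in either direction. Olfr145 had an unadjusted p of 0.00702 and an adjusted p of 0.233, and was the 1 gene under 0.05 before adjustment. With no filter on low counts it was called, at -1.90 (adjusted p 0.0134).

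Without odor the receptors were low in every set. Over the 9 no-odor libraries Olfr983 ran from 0.992 to 1.90 CPM, Olfr145 from 0.758 to 4.72, Olfr923 from 0.463 to 1.43 and Olfr160 from 0.261 to 1.71. Olfr983 was the steadiest across sets, with means of 1.63, 1.38 and 1.73 CPM in the AD, OC and FM sets. Olfr145 ranged from 0.9004 ± 0.171 in the FM set to 2.96 ± 1.62 in the OC set. Sets are batches, so a difference between their controls and a difference in preparation cannot be told apart.

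In the OC set no receptor approached its acetophenone level. Olfr983 had 0.992, 1.24 and 1.90 CPM in no-odor mice. Octanal mice had 0.801, 1.12 and 0.811 CPM, cis-3-hexenol mice 2.22, 1.85 and 2.61 CPM and mixture mice 3.46, 2.97 and 1.89 CPM. It was highest with the mixture and lowest with octanal. Olfr145 libraries of the odor groups ran from 0.951 to 4.36 CPM, those of Olfr923 from 0.822 to 2.93 and those of Olfr160 from 0.452 to 2.29. For these genes the odor ranges covered most of the control range, except that the 3 octanal libraries of Olfr923 were above and those of Olfr160 below all controls. How many other receptor genes separated in this way was not counted.

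With octanal 0 of 4 genes was called in edgeR, with an unadjusted p under 0.05 or by DESeq2, where 24.2% of receptor genes were called in either direction. Changes ran from -0.73 (Olfr160, 95% interval -1.78 to 0.31) to 0.70 (Olfr923, -0.30 to 1.70). With cis-3-hexenol 0 of 4 was called in edgeR or by DESeq2, where 7.92% of receptor genes were called in either direction. Olfr923 had 1.02 there (0.03 to 2.00, unadjusted p 0.0444, adjusted p 0.209), the 1 gene under 0.05 before adjustment. All 4 point estimates were above 0 with cis-3-hexenol, at 0.29 to 1.02, beside a median of 0.44 for all receptor genes.

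With the octanal-cis-3-hexenol mixture Olfr983 was called higher, at 1.01 (SE 0.36, adjusted p 0.0424 in edgeR), although its lowest mixture library, 1.89 CPM, was below the highest control, 1.90 CPM. Of receptor genes 23.1% were called higher and their median was 0.24, so 1 call among 4 genes is close to the background. Scaled to the median receptor gene, the value was 0.59 (adjusted p 0.25), where the median of all genes moved from -0.05 to -0.50. The call was also lost without no-odor replicate 1 (0.82, adjusted p 0.143), without no-odor replicate 2 (0.96, adjusted p 0.102), without mixture replicate 1 (0.84, adjusted p 0.152) and without mixture replicate 2 (0.98, adjusted p 0.0947). The other 3 genes had changes of 0.04 to 0.86 and were not called.

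Olfr983 was called lower with octanal than with cis-3-hexenol, at -1.28 (SE 0.38, adjusted p 0.0252), and its libraries did not overlap. Of receptor genes 12.1% were called lower there and their median was -0.45. This call was lost without octanal replicate 1 (-1.18, adjusted p 0.0855), octanal replicate 3 (-1.21, adjusted p 0.0596), cis-3-hexenol replicate 2 (-1.39, adjusted p 0.0512) or cis-3-hexenol replicate 3 (-1.15, adjusted p 0.0998), or when scaled to the median receptor gene (-0.93, adjusted p 0.0986), where the median of all genes was 0.31. Olfr160 had -1.26 in the same comparison (adjusted p 0.0732), without overlap of its libraries. Olfr983 had 1.60 for the mixture against octanal (unadjusted p 0.000576, adjusted p 0.433 in edgeR), without overlap, where 1.28% of receptor genes were called and 0 of these 4, by edgeR or DESeq2. No gene of the 4 was called, or had an unadjusted p under 0.05, for the mixture against cis-3-hexenol (15.3% of receptor genes called in either direction) or for the interaction (0.815%), and DESeq2 called 0 in both.

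As a share of receptor counts the genes stood at 0.273% ± 0.0503 without odor in the OC set and at 0.0859% ± 0.0268 with octanal, without overlap (exact permutation p 0.1). The mixture had 0.141% ± 0.0608, also below all controls (exact permutation p 0.1), and cis-3-hexenol 0.246% ± 0.0692. For the mixture and cis-3-hexenol, but not for octanal, the direction depended on the denominator. In counts per 1 M of all counts the genes had 6.67 without odor, 5.00 with octanal, 8.79 with the mixture and 10.9 with cis-3-hexenol, while receptor genes as a whole rose from 0.225% to 0.269% of all counts in controls to 0.421% to 0.706% in the odor groups. Red blood cell markers in this set summed to 78038 to 92617 CPM without odor and 7450 to 28113 CPM in the odor groups, and mature neuron markers to 7310 to 9671 and 10566 to 26502 CPM. Their part in these values was not tested.

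Fragrances gave calls for 3 of the 4 receptors, all with smaller changes than acetophenone. Olfr983 was called higher with all 3 fragrances. It had 1.60, 1.77 and 1.83 CPM in no-odor mice. Floral mice had 2.73, 4.20 and 2.71 CPM, mint mice 3.78, 6.55 and 5.22 CPM and floral-mint mice 3.90, 3.21 and 4.00 CPM. All 9 fragrance libraries were above all 3 controls, and the mint libraries were the highest on average. The changes were 0.89 (SE 0.25, adjusted p 0.0281) for floral, 1.58 (SE 0.24, adjusted p 0.000857) for mint and 1.09 (SE 0.25, adjusted p 0.0112) for floral-mint. These share the same controls. The 8 mature neuron markers summed to 11898 to 13718 CPM in the no-odor mice of this set and 19309 to 22808 CPM in the fragrance mice. Of them 4 were called higher with floral (8.7% of all genes), 8 with mint (7.1%) and 6 with floral-mint (6.42%), and their part in the receptor changes of this set was not tested.
The mint call was made under all 14 alternatives. The floral call was lost without no-odor replicate 1 (0.83, adjusted p 0.108), 2 (0.90, adjusted p 0.0601) or 3 (0.93, adjusted p 0.0604) and without floral replicate 2 (0.64, adjusted p 0.119). The floral-mint call was lost without no-odor replicate 1 (1.04, adjusted p 0.0575). In a fit of all 36 libraries the floral value was 0.89 (adjusted p 0.13) and the floral-mint value 1.09 (adjusted p 0.0645).

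Olfr145 was called higher with the floral and floral-mint fragrances. It had 0.854, 1.09 and 0.758 CPM in no-odor mice. Floral mice had 2.73, 2.88 and 1.52 CPM, mint mice 0.623, 0.545 and 0.899 CPM and floral-mint mice 4.51, 3.33 and 3.69 CPM. The floral and floral-mint libraries were above all controls and all mint libraries. Changes against no odor were 1.39 (SE 0.30, adjusted p 0.00769) for floral, 2.09 (SE 0.29, adjusted p 0.000504) for floral-mint and -0.41 (95% interval -1.13 to 0.31, adjusted p 0.484) for mint. Set directly against mint, floral-mint was higher by 2.50 (SE 0.31, adjusted p 0.00292), a 5.64-fold difference that was called under all 14 alternatives, where 1.3% of receptor genes were called higher.
Floral was higher than mint by 1.80 (SE 0.32, adjusted p 0.0173), where 2.72% of receptor genes were called higher. That call was lost without floral replicate 1 (1.69, adjusted p 0.0838), floral replicate 2 (1.64, adjusted p 0.0875), mint replicate 1 (1.74, adjusted p 0.0781) or mint replicate 2 (1.65, adjusted p 0.102), and in a fit of only the libraries compared (1.80, adjusted p 0.105). In a fit of all 36 libraries the floral-against-mint value was 1.81 (adjusted p 0.363) and the floral value against no odor 1.39 (adjusted p 0.0959). Floral-mint against floral gave 0.69 (unadjusted p 0.0223, adjusted p 0.524 in edgeR) without overlap, where 2.13% of receptor genes and 0 of the 4 genes were called, and 0 by DESeq2.

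Olfr923 was called higher with mint, but not evenly across mice. It had 0.463, 0.526 and 0.518 CPM without odor and 0.479, 2.49 and 2.92 CPM with mint. Mint replicate 1 lay among the controls and the other mint libraries well above them. The change was 1.96 (SE 0.60, adjusted p 0.0474). It was lost without no-odor replicate 1 (1.90, adjusted p 0.155), 2 (1.99, adjusted p 0.101) or 3 (1.98, adjusted p 0.123), without mint replicate 2 (1.73, adjusted p 0.17) or mint replicate 3 (1.58, adjusted p 0.111), with scaling to the median receptor gene (1.92, adjusted p 0.0692), in a fit of only the libraries compared (1.95, adjusted p 0.0601) and in a fit of all 36 libraries (1.95, adjusted p 0.0533). With floral it had 0.740, 0.311 and 0.410 CPM and with floral-mint 0.193, 0.704 and 0.903 CPM, both overlapping the controls, with changes of -0.04 (-1.42 to 1.34) and 0.25 (-1.09 to 1.60).
Against mint, Olfr923 had -2.00 with floral (adjusted p 0.382) and -1.70 with floral-mint (adjusted p 0.823), neither of them called. Floral against mint was called without mint replicate 1, at -2.46 (adjusted p 0.0494), and with no filter on low counts, at -1.99 (adjusted p 0.00123). Floral-mint against mint was called with no filter, at -1.71 (adjusted p 0.0135).

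Olfr160 was not called with any fragrance. It had 0.961, 1.502 and 1.12 CPM in no-odor mice. Floral mice had 0.428, 0.855 and 0.410 CPM, mint mice 1.34, 0.818 and 0.899 CPM and floral-mint mice 0.540, 1.06 and 1.30 CPM. All floral libraries were below all controls, at a change of -1.07 (95% interval -1.95 to -0.19, unadjusted p 0.0208, adjusted p 0.0969). Mint and floral-mint overlapped the controls, at -0.23 (-1.08 to 0.62) and -0.31 (-1.15 to 0.53). Of the 4 genes 2 were thus called higher with each fragrance: Olfr983 and Olfr145 with floral and floral-mint, and Olfr983 and Olfr923 with mint. The background of receptor genes called higher was 9.68% (floral), 12.8% (mint) and 11.9% (floral-mint). As a share of receptor counts the 4 genes had 0.141% ± 0.0105 in no-odor mice of this set, 0.149% ± 0.0282 in floral, 0.178% ± 0.0319 in mint and 0.194% ± 0.0224 in floral-mint mice, and the floral-mint libraries alone lay above all controls (exact permutation p 0.1). In counts per 1 M of all counts, the mint libraries (6.02 to 10.3) and the floral-mint libraries (8.13 to 9.67) lay above all controls (4.13 to 5.13). The exact permutation p was 0.1 for both. The plot of log2 changes shows the fragrance changes next to the acetophenone changes, which are at least 4.44.

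**Figure D3:**
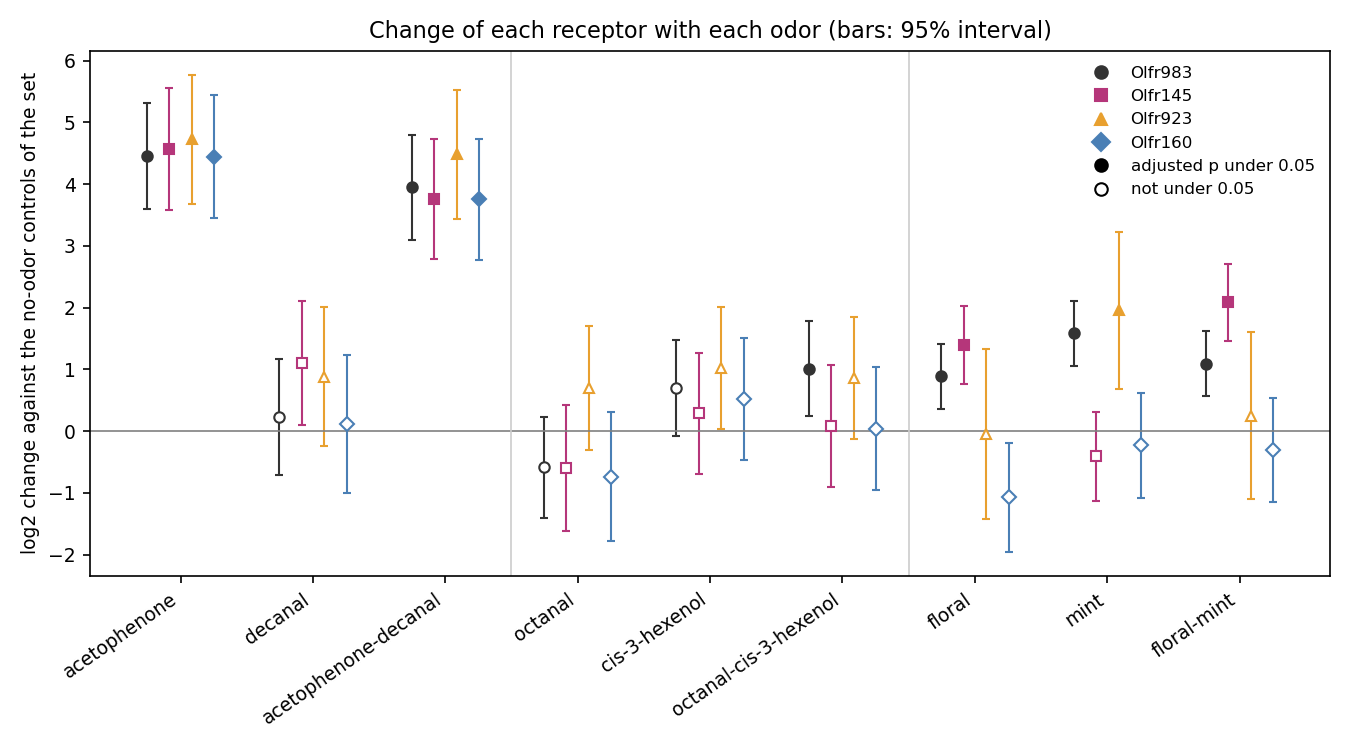
Log2 change of Olfr983, Olfr145, Olfr923 and Olfr160 with each of the 9 odors against the no-odor controls of the same set; bars are 95% intervals from the edgeR fit, filled symbols have an adjusted p under 0.05, and vertical lines separate the sets. Acetophenone and acetophenone-decanal give 3.75 to 4.72 for every gene, and the other odors give -1.07 to 2.09.

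The floral-mint interaction was called lower for Olfr983, at -1.38 (SE 0.34, adjusted p 0.0385), where 5.55% of receptor genes were called lower. Here the mixture's change of 1.09 was less than the sum of 0.89 and 1.58. Olfr145 had 1.1015 (adjusted p 0.164), Olfr923 -1.66 (adjusted p 0.294) and Olfr160 0.99 (adjusted p 0.345), none of them called. The Olfr983 call was lost without any of 8 of the 12 libraries, at values of -1.14 without floral replicate 2 (adjusted p 0.0854), -1.16 without mint replicate 2 (0.112), -1.32 without no-odor replicate 1 (0.107), -1.39 without no-odor replicate 2 (0.0609), -1.42 without no-odor replicate 3 (0.0675), -1.42 without floral-mint replicate 1 (0.0671), -1.29 without floral-mint replicate 2 (0.0932) and -1.44 without floral-mint replicate 3 (0.0677). In a fit of all 36 libraries its adjusted p was 0.225.

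The order of the group means began alike in all 4 genes, with acetophenone first, the acetophenone-decanal mixture second and then a gap without overlap of libraries. After that gap Olfr983 had mint (5.18 ± 1.38 CPM), Olfr145 floral-mint (3.84 ± 0.609), Olfr923 decanal (2.09 ± 0.821) and Olfr160 cis-3-hexenol (1.96 ± 0.551). Below it, neighbors in the order overlapped except 1 pair in each of Olfr145, Olfr923 and Olfr160. The lowest groups were octanal for Olfr983 (0.911 ± 0.183), mint for Olfr145 (0.689 ± 0.186) and floral for Olfr923 (0.487 ± 0.225) and Olfr160 (0.565 ± 0.252). Levels across sets cross batches and are a description.

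Across the 36 libraries, each taken as log2 CPM minus the mean of the controls of its set, pairs of the 4 genes had Pearson r of 0.73 to 0.87. Of these libraries 6 had acetophenone, alone or in the mixture, and all points of a library share its scaling and depth. Within the groups of the AD set, after group means were removed, r was 0.63 for Olfr983 with Olfr145 and -0.23 to 0.30 for the other pairs (12 libraries). Olfr983 and Olfr145 are also the pair with the highest coding identity. The 6 receptor genes most like the mean of the 4 by this measure were Olfr376 (r 0.95), Olfr1026 (0.94), Olfr1124 (0.93), Olfr889 (0.92), Olfr143 (0.92) and Olfr1477 (0.92), among 864 receptors with a median r of -0.04 and 7 above 0.9. Their acetophenone changes were 3.87 to 5.29 and their mixture changes 3.51 to 4.65, and none was called with decanal (-0.40 to 1.29). The 6 were picked by likeness to a profile highest in the libraries with acetophenone, so these changes largely follow from that choice. No p is given, since all were compared over the same libraries.

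Receptors closest in coding sequence to Olfr983 and Olfr145 also rose with acetophenone, and those closest to Olfr160 did not pass the test. The 3 closest other receptors of each gene were taken from GENCODE vM21 transcripts, Olfr151 aside. For Olfr145 these were Olfr874 (82.9% identity), Olfr876 (82.3%) and Olfr875 (82.2%), with changes of 5.17 (adjusted p 7.23e-05), 4.80 (0.00128) and 3.07 (0.0193). Counts of Olfr874 were 32, 11 and 11 without odor and 792, 454 and 671 with acetophenone. For Olfr983, Olfr901 (83.9%) rose by 3.395 (adjusted p 0.000556) and Olfr890 (83.6%) by 3.05 (adjusted p 0.0355). The closest of all, Olfr888 (84.0%), had too few counts for the test, with 0 in each control and 17, 1 and 10 with acetophenone.
For Olfr923, Olfr147 (71.2%) rose by 3.44 (adjusted p 0.00242). Olfr904 (69.99%) had counts of 1, 0 and 0 without odor and 198, 58 and 5 with acetophenone, and was called higher (adjusted p 0.00549). Olfr915 had at most 2 counts in any AD library. For Olfr160, Olfr229 (70.5%) had -0.30 (adjusted p 0.876) and Olfr150 (69.4%) -0.47 (adjusted p 0.703), and Olfr967 was not tested. The calls of Olfr875 and Olfr890 rested on single libraries. Without no-odor replicate 1 they were 2.83 (adjusted p 0.0686) and 2.63 (adjusted p 0.102), without no-odor replicate 2 they were 2.91 (0.0942) and 2.81 (0.147), and without acetophenone replicate 1 they were 2.29 (0.0704) and 2.47 (0.11). Olfr890 was also lost without acetophenone replicate 2 (3.36, adjusted p 0.0554) and when scaled to the median receptor gene (2.91, adjusted p 0.0542).

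Of the 9 tested relatives of these 4 genes, 7 were called higher with acetophenone, against 12.7% of all receptor genes tested. Olfr888, Olfr915 and Olfr967 were not tested. Olfr904 and Olfr890 had few counts without acetophenone, so they passed the filter through the groups in which they were high. The count of 7 is therefore a description. Bins of identity to the closest of the 4 genes hold these relatives again, and bins and measure were chosen after the values were known. At 80% or more, 7 of 9 receptors were called higher, at 75% to 80% 1 of 2, at 70% to 75% 6 of 13 and at 65% to 70% 6 of 26. From 60% to 65% it was 18 of 79, and below 60% 68 of 735, or 9.25%. Every receptor at 65% or more lies on chromosome 9, so likeness in sequence and place on that chromosome cannot be told apart at that level. From 60% to 65%, 1 of 79 receptors lies on chromosome 9, and 0 of the 18 called higher do. Chromosome 9 receptors below 60% were called higher in 2 of 30.

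**Figure D4:**
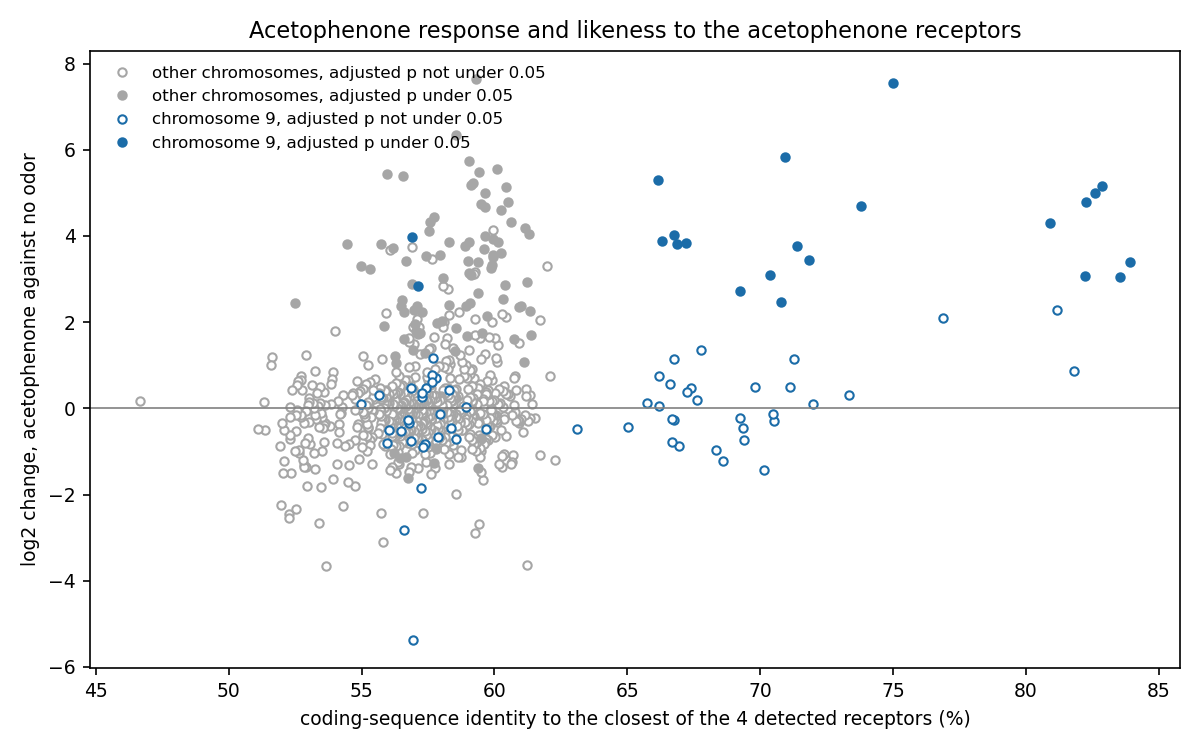
Log2 change with acetophenone against no odor (y axis) and coding-sequence identity to the closest of Olfr983, Olfr145, Olfr923 and Olfr160 in percent (x axis), for the 864 other receptor genes tested; blue points lie on chromosome 9, gray points on other chromosomes, and filled points have an adjusted p under 0.05. Of 9 receptors at 80% or more, 7 were called higher, and most receptors below 60% stay near 0, though 68 of these were called higher too.

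Counted by chromosome, 22 of 81 other receptors on chromosome 9 were called higher and 0 lower, and 84 of 783 on other chromosomes were called higher and 8 lower. The nearest protein-coding receptor genes on either side, by the order of the GRCm38 annotation, included 7 that were tested, and 2 of them were called. Olfr874 beside Olfr160 rose by 5.17 and Olfr922 beside Olfr923 by 4.69 (adjusted p 0.000672). Olfr982 and Olfr984, which flank Olfr983, had -0.52 (adjusted p 0.708) and -0.26 (adjusted p 0.836). Olfr877 and Olfr878, which flank Olfr145, had 2.10 (adjusted p 0.241) and -0.13 (adjusted p 0.956), and Olfr924 beside Olfr923 had -1.21 (adjusted p 0.397). Counts of Olfr877 with acetophenone were 68, 32 and 3, against 7, 5 and 12 without odor, so replicate 3 alone lay with the controls.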

How the data were processed

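RNA from pS6 immunoprecipitation of olfactory epithelium was sequenced in 36 libraries. The authors deposited a table of expected counts for each set, with a column per library. The submitters' processing notes name the build GRCm39, Salmon 1.10.1, STAR 2.7.10b and R 4.4.2, and a stranded mRNA kit was used per the labels' protocols. The annotation, the counting step and whether it used strand are not given in the sources used here. Of 57010 gene identifiers, 52029 were named from GENCODE vM21 (GRCm38), so no coordinates are given.

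Expected counts, of which 11.05% to 16.4% per library were fractional, were rounded for the tests. Each set of 12 libraries was fitted with edgeR 4.0.16 (limma 3.58.1, R 4.3.3) with group means as terms, genes kept by filterByExpr (minimum count 10, minimum total 15), TMM scaling, glmQLFit and glmQLFTest (2-sided). Adjusted p is the Benjamini-Hochberg value across every gene in the fit. Intervals are 95% intervals from the fit. Alternatives were DESeq2 1.42.0, other scalings, no filter, other sets of libraries in the fit, a replicate block, Olfr160 and Olfr151 summed, and leaving out each library. The code was tested on simulated data. The labels call the mice of a group biological replicates, so p-values measure the spread between mice.

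The members and lists were chosen with earlier results of these data known. Named genes were the members, their 3 closest relatives, next-door receptors, the 6 receptors most alike in pattern (log2 CPM with prior count 2) and up to 4 called genes of a list. Relatives were planned from protein sequences. Coding sequences were used instead, chosen after the values were known, since no protein table was used here.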

Additional observations from a re-analysis of the deposited data

Results flagged for a closer look

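Olfr983 had a floral-mint interaction of -1.38 on the log2 scale in edgeR (SE 0.34, adjusted p 0.0385). The value is the floral-mint change minus the sum of the floral and mint changes, tested over 12 mice. The call was lost when any of 8 single libraries was left out (adjusted p 0.0609 to 0.112) and in a fit of all 36 libraries (adjusted p 0.225). Its level was 1.73 ± 0.119 CPM without odor, 3.21 ± 0.855 in floral, 5.18 ± 1.38 in mint and 3.70 ± 0.432 in floral-mint mice (SD, n = 3). The volume of each fragrance in the floral-mint blend is not given in the labels, so a smaller dose of either fragrance and an effect of one on the other cannot be told apart. Of the 18 olfactory transduction genes 5 were called lower for this interaction and 0 higher, where 2.58% of all genes were called lower. Their median was -0.36, against 0.02 for all genes and 0.07 for receptor genes. Their part in the Olfr983 value was not tested.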

How the results depend on the processing

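The 4 calls higher with acetophenone, with its mixture and for acetophenone against decanal were made under every alternative run. Without any filter on low counts 1 gene was called with decanal, 1 for the acetophenone-decanal mixture against acetophenone, 1 for its interaction, 0 with the octanal-cis-3-hexenol mixture, 2 for floral-mint against mint and 2 for floral against mint. Scaling to the median receptor gene gave 0 with the octanal-cis-3-hexenol mixture, 0 for octanal against cis-3-hexenol and 1 with mint. Fits of only the libraries compared gave 0 with the octanal-cis-3-hexenol mixture, 1 with mint and 0 for floral against mint, and were not run for interactions, which need all 4 groups. One fit of all 36 libraries gave 2 for octanal against cis-3-hexenol, 0 with floral, 1 with mint, 1 with floral-mint, 0 for floral against mint and 0 for the floral-mint interaction. Different filters and fits change the genes and libraries that set the spread and the adjustment, and other causes were not tested. Olfr160 and Olfr151 summed gave the same values, since Olfr151 had no counts.

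Replicate numbers were not taken to pair the mice. Correlations of deviations between same-numbered libraries had medians of -0.01 (AD set), 0.04 (OC set) and -0.07 (FM set). Between different-numbered libraries the medians were 0.00, -0.03 and 0.03. A library correlated best with its own number in 11, 16 and 7 of 36 cases. In the OC set 6 of 18 same-numbered pairs had r above 0.1, against 4 of 36 others. This check cannot exclude a pairing. With the replicate block, counts of calls were 0 with the octanal-cis-3-hexenol mixture, 1 with mint and 0 for the floral-mint interaction, and no other count of called members moved. The relative Olfr875 had 2.93 (adjusted p 0.0524) with the replicate block.

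Leaving out each library in turn gave 0 to 2 calls for the acetophenone-decanal mixture against acetophenone, 3 to 4 against decanal, 0 to 1 with the octanal-cis-3-hexenol mixture, for octanal against cis-3-hexenol, for floral against mint and for the floral-mint interaction, and 1 to 2 with each fragrance. Ratios of the share of receptor counts to control ran from 12.8 to 18.9 with acetophenone, 9.56 to 13.9 with its mixture, 1.12 to 1.38 with decanal, 0.28 to 0.371 for octanal, 0.765 to 1.02 for cis-3-hexenol, 0.451 to 0.644 with their mixture, 0.96 to 1.16 with floral, 1.19 to 1.39 with mint and 1.29 to 1.44 with floral-mint. As a share of all counts the ratio reversed to 1.63 with cis-3-hexenol (from 0.9) and to 1.32 with the octanal-cis-3-hexenol mixture (from 0.515), where receptor genes took a larger share of all counts. Of 2018 values of single genes under alternatives, 66 lost their call and 11 gained one, and 45 changed sign, 0 of them called. Low counts limit the comparisons outside acetophenone: several no-odor libraries held under 30 counts of a gene.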
